A study of Homo sapiens with 8 samples.

Results

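The mRNA levels of 9 cell cycle cyclins, CCND1, CCND2, CCND3, CCNE1, CCNE2, CCNA2, CCNB1, CCNB2 and CCNF, were examined in 8 RNA-seq libraries of 2 Burkitt lymphoma cell lines. The genes were taken by symbol, with earlier results of these data known, and all 9 were among the 18143 gene labels that could be matched to their values in a table of 63967 labels. Raji is a rituximab-sensitive line, and Raji-4RH is its rituximab-resistant derivative, which was obtained by repeated exposure to rituximab, an antibody against CD20. Each line was treated for 24 h with DMSO, the vehicle, or with 3 μM chidamide, an inhibitor of histone deacetylases, which gave the 4 groups Raji DMSO, Raji chidamide, Raji-4RH DMSO and Raji-4RH chidamide with 2 libraries each. The comparisons ask how chidamide changed cyclin mRNA in the resistant and in the sensitive line, and whether the 2 lines differed.

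Cyclins are the regulatory subunits of the cyclin-dependent kinases (CDKs), and most of them are made and destroyed once in each division cycle. D-type cyclins bind CDK4 and CDK6 in G1 and start the phosphorylation of RB1, E-type cyclins bind CDK2 at entry into S phase, cyclin A2 acts with CDK2 in S phase and with CDK1 in G2, and B-type cyclins drive mitosis with CDK1. Cyclin F is the exception, because it binds no CDK and is the substrate-recognising subunit of an SCF ubiquitin ligase. Among the D-type members, B lymphocytes rely mainly on cyclins D2 and D3.

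Values are FPKM, in which reads are scaled to gene length and to library size. For the 9 cyclins this length is that of all annotated exons joined, as 5802 bases for CCND3 and 2798 for CCNA2. A single transcript can be shorter, so ranks, sums and shares of FPKM across different cyclins are approximate. In the deposited table the values of CCNA2, CCNB1, CCNB2, CCNF and CCNE2 stood 1 to 5 rows below their gene labels and were moved to them, while those of CCND1, CCND2, CCND3 and CCNE1 stood in place. In the row of its label CCNA2 would have had at most 0.0343 FPKM. The library totals lay between 13991697 and 21193441 reads, and the lowest was that of Raji-4RH chidamide replicate 1. Replicates differed by more than counting noise in all 4 groups, most in Raji-4RH chidamide (chi-square per gene 13.5) and least in Raji chidamide (1.77). Of the B cell markers, CD79A ranged over the 8 libraries from 166 to 575 FPKM, CD79B from 232 to 298, PAX5 from 17.8 to 41.6, MS4A1 from 12.5 to 129 and CD22 from 51.3 to 137. Of 14 markers of other cells, 13 were found and 5 reached 1 FPKM in some library, and their summed FPKM was 3.67 to 3.8 in Raji DMSO, 8.71 to 9.59 in Raji chidamide, 1.66 to 1.8 in Raji-4RH DMSO and 12.7 to 13.9 in Raji-4RH chidamide, so it was higher with chidamide in both lines, where 7 cyclins fell in Raji-4RH and 4 in Raji. The highest value of a single one was 5.06 FPKM, for CSF1R, and EPCAM reached at most 0.0647. The part of these markers in the cyclin results was not tested. Changes are given as log2 fold changes on the log2(FPKM + 1) scale, with the standard error (SE), from limma in 1 fit over all 8 libraries, and a gene was called at a Benjamini-Hochberg adjusted p under 0.05 over the 10710 genes tested. The added 1 FPKM understates the change of genes with low levels.

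Chidamide lowered 7 of the 9 cyclins in Raji-4RH, raised CCND1 from a trace level (a value that turned negative under quantile normalization), and left CCND2 without a test because it was near 0 in all 8 libraries. In Raji, 4 cyclins fell (CCND3, CCNA2, CCNB1 and CCNB2), none rose, and 4 did not pass the test (CCND1, CCNE1, CCNE2 and CCNF). Over all genes tested, limma called 43.3% higher and 31.6% lower with chidamide in Raji-4RH, and 31.5% higher and 28.5% lower in Raji, so a fall was common among genes at large. Quantile normalization, which lowered the median over all tested genes in Raji-4RH from 0.0929 to -0.0219, turned the count of genes called there from 4642 higher and 3380 lower to 3718 higher and 4057 lower. The median log2 fold change of the 8 tested cyclins was -1.19 in Raji-4RH and -0.19 in Raji, beside medians of 0.093 and 0.017 for all genes tested. Summed over the 9 genes, cyclin FPKM in Raji was 204 and 209 with DMSO and 138 and 136 with chidamide, and in Raji-4RH it was 238 and 241 with DMSO and 86.0 and 91.3 with chidamide. The resistant line thus had the highest sum without chidamide and the lowest with it. In bulk RNA, fewer cells that express a cyclin and less cyclin mRNA per cell cannot be told apart.

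**Figure D1:**
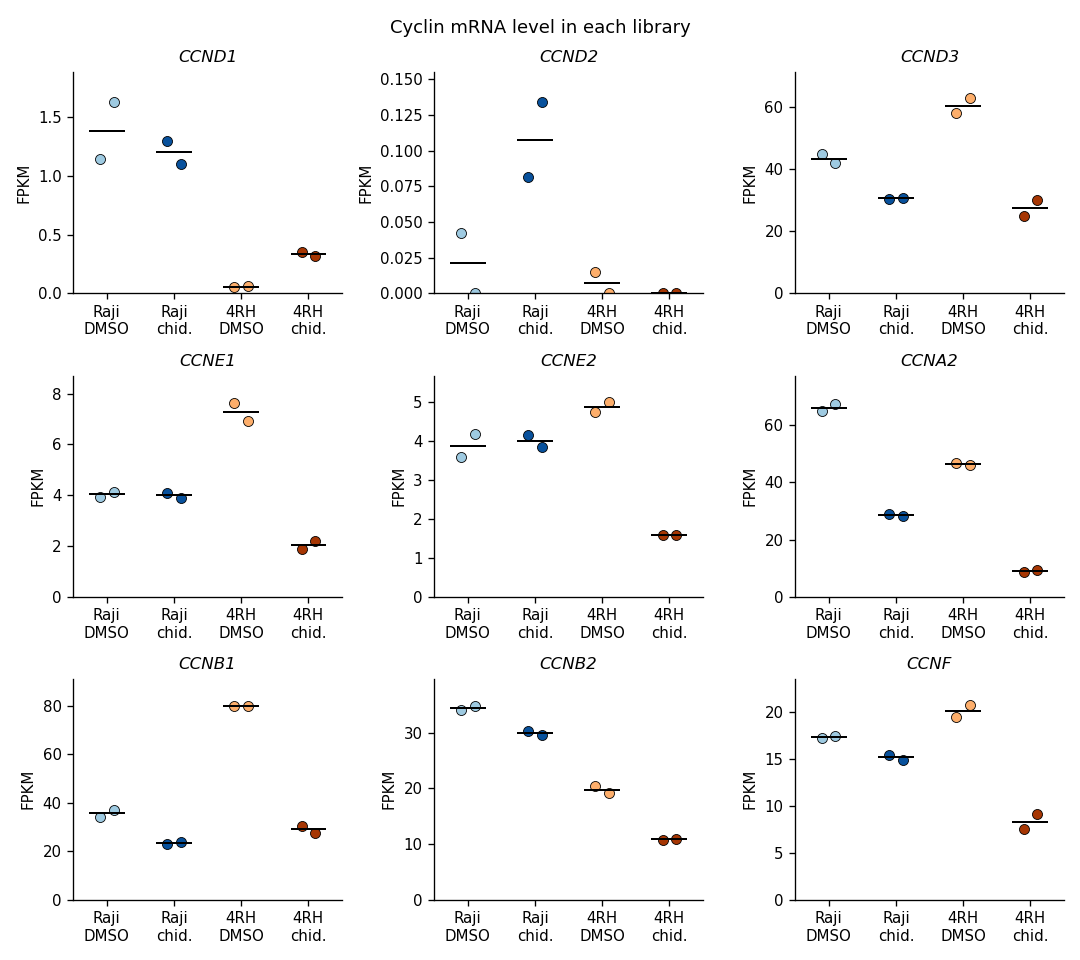
FPKM (y axes, each starting at 0) of the 9 cyclins in the 4 groups, with 1 point per library and a line at the mean of the 2 libraries; chid. is chidamide and 4RH is Raji-4RH. CCNA2 fell from 46.8 and 46.3 to 8.48 and 9.43 in Raji-4RH and from 65.1 and 67.5 to 29 and 28.1 in Raji, while CCNE1 and CCNE2 overlapped between the Raji groups.

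Among the D-type cyclins, CCND3 (ENSG00000112576, chromosome 6, 41934933 to 42050357, minus strand, GRCh38) gave nearly all of the mRNA. It made up 95.7% to 99.9% of the summed D-type FPKM in the 8 libraries. Its level was 58.3 and 62.9 FPKM in Raji-4RH DMSO and 24.8 and 30.1 in Raji-4RH chidamide. In Raji it was 44.8 and 41.9 with DMSO and 30.4 and 30.9 with chidamide. The treated libraries lay below the DMSO libraries in both lines, and the 2 treated groups came close to each other. CCND3 fell by 1.12 on the log2 scale in Raji-4RH (SE 0.088, limma adjusted p = 6.5e-06), to 45.3% of the DMSO mean. In Raji it fell by 0.49 (SE 0.088, limma adjusted p = 0.00161), to 70.7% of the DMSO mean. An exon of the long noncoding RNA AL513008.1 lies over CCND3 on the other strand, and the strand setting of the read counting is not given in the sources used here.

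CCND1 (ENSG00000110092, chromosome 11, 69641087 to 69654474, plus strand) was expressed at a low level in Raji and at a trace level in Raji-4RH. It had 1.14 and 1.63 FPKM in Raji DMSO and 1.3 and 1.1 in the chidamide libraries of that line, from 109 to 159 reads per library. In Raji-4RH it had 0.0552 and 0.0586 FPKM with DMSO, from 5 and 6 reads, and 0.355 and 0.315 with chidamide, from 24 and 28 reads. The Raji groups overlapped, and the treated Raji-4RH libraries lay above the DMSO ones and below all Raji libraries. CCND1 rose by 0.34 in Raji-4RH (SE 0.097, limma adjusted p = 0.0121), and its change of -0.11 in Raji did not pass the test (adjusted p = 0.35). In Raji it was called lower under quantile normalization (-0.40, limma adjusted p = 0.00814) and without Raji DMSO replicate 1 (-0.26, adjusted p = 0.0341), and without Raji DMSO replicate 2 it had 0.04 (adjusted p = 0.743). On the scale of reads, without the added 1 FPKM, limma voom gave a log2 fold change of 2.44 for the same rise (SE 0.575, adjusted p = 0.00227). The call in Raji-4RH was lost without Raji-4RH DMSO replicate 1 (0.33, limma adjusted p = 0.0518), and under quantile normalization the value turned to -0.10. CCND1 passed the filter of 1 FPKM in 2 libraries only through Raji, and an exon of LTO1 on the other strand overlaps it.

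CCND2 (ENSG00000118971, chromosome 12, 4273772 to 4305350, plus strand), the other D-type cyclin of B cells, was at or near 0 throughout. It had 6 and 0 reads in Raji DMSO, 12 and 20 in Raji chidamide, 2 and 0 in Raji-4RH DMSO, and 0 and 0 in Raji-4RH chidamide. Both treated Raji libraries lay above the others, at 0.0814 and 0.134 FPKM. A count of 0 allows up to 0.0208 FPKM in Raji DMSO replicate 2, 0.0198 in Raji-4RH DMSO replicate 2, and 0.0300 and 0.0228 in the Raji-4RH chidamide libraries, for counting error only. CCND2 did not reach the filter, and without any filter limma gave a log2 fold change of 0.12 with chidamide in Raji (adjusted p = 0.0202) and -0.011 in Raji-4RH (adjusted p = 0.777). Exons of CCND2-AS1 and AC008012.1 overlap it.

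The E-type cyclins fell with chidamide in Raji-4RH and did not pass the test in Raji. CCNE1 (ENSG00000105173, chromosome 19, 29811898 to 29824308, plus strand) had 7.63 and 6.90 FPKM in Raji-4RH DMSO and 1.88 and 2.19 in Raji-4RH chidamide. In Raji it had 3.93 and 4.13 with DMSO and 4.07 and 3.90 with chidamide. The resistant line therefore moved from the highest to the lowest CCNE1 level of the 4 groups, and the Raji groups overlapped. CCNE1 fell by 1.45 in Raji-4RH (SE 0.074, limma adjusted p = 5.8e-07), to 28% of the DMSO mean. Its change in Raji was -0.01 (SE 0.074, adjusted p = 0.898).

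CCNE2 (ENSG00000175305, chromosome 8, 94879770 to 94896678, minus strand) likewise had its highest level in Raji-4RH DMSO and its lowest in Raji-4RH chidamide, with overlapping Raji groups. It had 4.74 and 4.98 FPKM in Raji-4RH with DMSO and 1.58 and 1.57 with chidamide, against 3.57 and 4.17 in Raji with DMSO and 4.13 and 3.84 with chidamide. CCNE2 fell by 1.19 in Raji-4RH (SE 0.073, limma adjusted p = 1.5e-06), to 32.4% of the DMSO mean, and its change of 0.04 in Raji did not pass the test (SE 0.073, adjusted p = 0.699). In voom on reads, without the added 1 FPKM, the log2 fold changes of CCNE1 and CCNE2 in Raji-4RH were -1.81 and -1.63. INTS8 and the antisense RNA AC087752.4 overlap exons of CCNE2 on the other strand, while no annotated gene shares an exon with CCNE1.

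CCNA2 (ENSG00000145386, chromosome 4, 121816444 to 121823933, minus strand), whose product carries cells through S phase into G2, had the largest fall of the tested members in both lines. Its level was 46.8 and 46.3 FPKM in Raji-4RH DMSO and 8.48 and 9.43 in Raji-4RH chidamide. In Raji it was 65.1 and 67.5 with DMSO, the highest cyclin FPKM of that group, and 29 and 28.1 with chidamide. The 4 groups did not overlap, and both treated groups lay below both DMSO groups. In Raji DMSO CCND3 had more reads than CCNA2 (5138 and 4896 against 3599 and 3807), over a greater length. CCNA2 fell by 2.26 in Raji-4RH (SE 0.059, limma adjusted p = 3.8e-08), to 19.2% of the DMSO mean. In Raji it fell by 1.19 (SE 0.059, adjusted p = 1.5e-06), to 43.0% of the DMSO mean. EXOSC9 on the other strand overlaps an exon of CCNA2.

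Cyclin A2 and the B-type cyclins belong to S phase, G2 and mitosis, and genes of this group are known for promoters that hold CCAAT boxes, bound by NF-Y, and the cell cycle homology region (CHR), bound by the DREAM and MYB-MuvB complexes. Promoter stretches are shown for CCNA2, CCNB1, CCNB2 and CCNF, which fell in Raji-4RH, as did CCND3, CCNE1 and CCNE2. They come from RefSeq (GRCh38.p14), from windows of 250 bases before to 50 after a start site, which were given for 6 of the 9 cyclins in 8 windows. Both strands were searched for CCAAT as the box of NF-Y, for TTTGAA as the usual CHR and for TTCGAA as a variant of it, and for TTGGCGC as a form of the E2F site with TTCCCGC as a further form. Capitals mark each match. Each stretch has 30 bases, is written in the direction of the gene, and is numbered from the RefSeq start site, with the base before it as -1. These start sites differ from the gene starts in the coordinates given for each cyclin, which are from GENCODE v29. The CCNB1 stretches, those of CCNB2 from -66 on and part of the CCNA2 stretch therefore lie within those gene coordinates.
CCNA2, -68 to -39, chr4:121823922-121823951, minus strand: gcgagcgctttcATTGGtccatttcaatag
CCNB1, -99 to -70, chr5:69167051-69167080, plus strand: gaccggcagccgCCAATgggaagggagtga
CCNB1, -67 to -38, chr5:69167083-69167112, plus strand: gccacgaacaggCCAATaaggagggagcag
CCNB2, -132 to -103, chr15:59105014-59105043, plus strand: aagaaaattcagCCAATgagagtgcgagag
CCNB2, -99 to -70, chr15:59105047-59105076, plus strand: atcttgtgttggCCAATgagaacagcgacc
CCNB2, -66 to -37, chr15:59105080-59105109, plus strand: gcgcagggccgcCCAATggggcgcaagcga
CCNB2, -41 to -12, chr15:59105105-59105134, plus strand: agcgacgcggtaTTTGAAtcctggaacaag
CCNF, -107 to -78, chr16:2429340-2429369, plus strand: gCCAATgggagggccgggtgcgTTTGAAaa

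CCAAT was found in 6 of the 8 cyclin windows, beside 34.6% of all 35116 promoter windows. These windows belong to 5 of the 6 cyclins (CCNA2, CCNB1, CCNB2, CCND3 and CCNF), and CCND3 alone has 3 windows. TTTGAA was found in 2 of the 8, those of CCNB2 and CCNF (15.2% of all windows), and TTCGAA in 1, that of CCNF (1.45%). TTGGCGC (3.04%) and TTCCCGC (6.55%) were in none of the 8 cyclin windows. In CCNA2 the match lies on the other strand and reads ATTGG. Some matches, among them those of CCND3, are not printed. CCNE1, which also fell in Raji-4RH, had none of these letters in its window. A match is a description of letters and no measure of binding, and its part in the falls was not tested.

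CCNB1 (ENSG00000134057, chromosome 5, 69167010 to 69178245, plus strand), the main partner of CDK1 at entry into mitosis, had the highest cyclin FPKM in Raji-4RH DMSO. It stood at 80.1 FPKM in both libraries, from 3842 and 4340 reads, while CCND3 had 6346 and 7736 reads over a greater length. The CCNB1 level was 30.6 and 27.7 FPKM in Raji-4RH with chidamide, and in Raji 34.3 and 37.2 with DMSO and 23.2 and 23.7 with chidamide. Treated Raji-4RH cells thus kept a CCNB1 level between those of the 2 Raji groups. CCNB1 fell by 1.43 in Raji-4RH (SE 0.064, limma adjusted p = 3.1e-07), to 36.4% of the DMSO mean, and by 0.59 in Raji (SE 0.064, adjusted p = 9.7e-05), to 65.6%.

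CCNB2 (ENSG00000157456, chromosome 15, 59105078 to 59125045, plus strand), the second mitotic B-type cyclin, had a different order of groups. It had 34.1 and 34.9 FPKM in Raji DMSO, 30.3 and 29.6 in Raji chidamide, 20.4 and 19.2 in Raji-4RH DMSO, and 10.8 and 10.9 in Raji-4RH chidamide. Every Raji library lay above every Raji-4RH library, whatever the treatment. CCNB2 fell by 0.81 in Raji-4RH (SE 0.051, limma adjusted p = 1.9e-06), to 54.8% of the DMSO mean, the smallest of the 7 falls there. In Raji it fell by 0.20 (SE 0.051, adjusted p = 0.00972), to 86.7%, a call that was lost without Raji DMSO replicate 2 (-0.18, limma adjusted p = 0.0514), without Raji chidamide replicate 2 (-0.18, adjusted p = 0.0745) and under quantile normalization (-0.08, adjusted p = 0.259). No annotated gene shares an exon with CCNB1 or CCNB2.

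CCNF (ENSG00000162063, chromosome 16, 2429394 to 2458854, plus strand), the ubiquitin ligase subunit, had 19.4 and 20.7 FPKM in Raji-4RH DMSO and 7.49 and 9.08 in Raji-4RH chidamide. In Raji it had 17.2 and 17.4 with DMSO and 15.4 and 14.9 with chidamide. The treated libraries lay below the DMSO libraries in both lines. CCNF fell by 1.19 in Raji-4RH (SE 0.081, limma adjusted p = 2.9e-06), to 41.3% of the DMSO mean, and its change of -0.18 in Raji did not pass the test (SE 0.081, adjusted p = 0.0844). That value passed in 5 of 17 alternatives, among them voom on reads (-0.19, adjusted p = 0.0416) and the fits without either Raji-4RH chidamide library (-0.18 in both, adjusted p = 0.0102 and 0.0103). The antisense RNA AC106820.6 and AC106820.5 overlap exons of CCNF on the other strand.

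**Figure D2:**
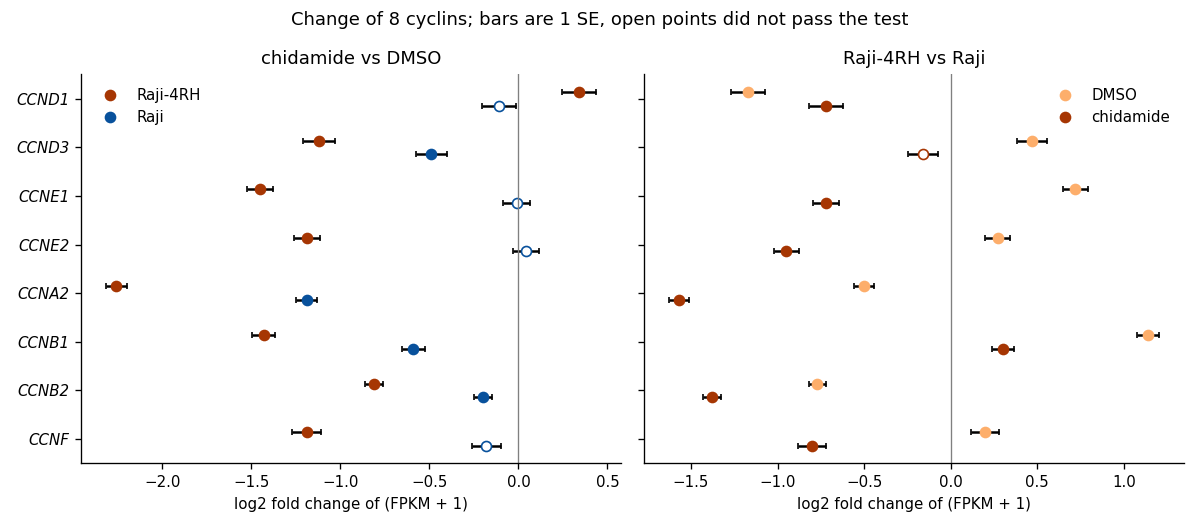
Log2 fold change of FPKM + 1 (x axes) for the 8 tested cyclins, with chidamide against DMSO in each line on the left and Raji-4RH against Raji under each treatment on the right; bars are 1 SE and open points did not pass the test. CCNA2 lies farthest to the left with chidamide, at -2.26 in Raji-4RH and -1.19 in Raji, and CCNB1 stands to the right of 0 in both line comparisons, at 1.14 and 0.30.

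The change with chidamide differed between Raji-4RH and Raji for all 8 tested cyclins. In the interaction of line and treatment (the change in Raji-4RH minus that in Raji), 1 cyclin was called higher and 7 lower, where limma called 27.2% of all tested genes higher and 21.7% lower. On the log2(FPKM + 1) scale the largest difference was that of CCNE1, at -1.43 (SE 0.104, limma adjusted p = 2.7e-05), and the next was CCNE2, at -1.22 (SE 0.103, adjusted p = 5.2e-05). The 3 members with the next largest differences were CCNA2 (-1.07, SE 0.084), CCNF (-1.01, SE 0.115) and CCNB1 (-0.84, SE 0.090), with limma adjusted p of 3.7e-05, 2.4e-04 and 1.7e-04. CCND3 and CCNB2 differed by -0.63 and -0.61 (SE 0.124 and 0.073, adjusted p = 0.00373 and 3.0e-04), and CCND1 by 0.45 in the other direction (SE 0.137, adjusted p = 0.0259). In voom on reads, without the added 1 FPKM, the difference of CCND1 was 2.64 (SE 0.603, adjusted p = 0.00471), larger than the -1.80 of CCNE1 and the -1.67 of CCNE2. The call for CCND1 was lost under quantile normalization (0.30, limma adjusted p = 0.102) and without Raji DMSO replicate 2 (0.30, 0.0594), Raji chidamide replicate 2 (0.39, 0.0912), Raji-4RH DMSO replicate 1 (0.45, 0.0705) or Raji-4RH DMSO replicate 2 (0.45, 0.0696), while the other 7 were called in each of the 16 alternatives fitted gene by gene to the moved values.

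Without chidamide, the lines already differed in all 8 tested cyclins, 5 of which were higher and 3 lower in Raji-4RH. Limma called 41.2% of all tested genes higher and 32.4% lower there, so a difference between the lines was common among genes at large. CCNB1 was higher by 1.14 (SE 0.064, limma adjusted p = 7.9e-07), at 224% of the Raji mean, and CCNE1 by 0.72 (SE 0.074, adjusted p = 3.4e-05), at 180%. CCND3, CCNE2 and CCNF were higher by 0.47, 0.27 and 0.20 (adjusted p = 0.00126, 0.00915 and 0.0494). The CCNF call was lost in 10 of 17 alternatives, among them each fit that left out 1 of the Raji or Raji-4RH DMSO libraries (log2 fold change 0.16 to 0.25, adjusted p = 0.0768 to 0.223). The CCNE2 call was lost under quantile normalization (0.16, adjusted p = 0.0914), without Raji DMSO replicate 1 (0.18, 0.0655) and without Raji-4RH DMSO replicate 2 (0.24, 0.0578). The 3 cyclins lower in Raji-4RH were CCND1 (-1.17, SE 0.097, limma adjusted p = 8.9e-06), CCNB2 (-0.77, SE 0.051, adjusted p = 2.4e-06) and CCNA2 (-0.50, SE 0.059, adjusted p = 8.1e-05). CCND1 stood at 4.10% of the Raji mean, and since it entered the test only through its Raji libraries it had to differ. Without it the lower calls were those of CCNB2 and CCNA2. On the log2(FPKM + 1) scale CCND1 had -1.17. On reads the difference of CCND1 was -4.47 (SE 0.516, voom adjusted p = 1.0e-05).

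Under chidamide, 1 cyclin was called higher and 6 lower in Raji-4RH than in Raji, where limma called 44.3% of all tested genes higher and 35.0% lower. This comparison uses the same treated libraries as the comparisons above, so its values are no separate evidence. On the log2(FPKM + 1) scale CCNA2 had the largest difference, with a log2 fold change of -1.57 (SE 0.059, limma adjusted p = 6.5e-08), and CCNB2 had -1.38 (SE 0.051, adjusted p = 6.0e-08). CCNE2, CCNF, CCNE1 and CCND1 followed at -0.95, -0.80, -0.72 and -0.72 (adjusted p = 4.0e-06, 2.4e-05, 2.6e-05 and 1.5e-04). CCND1 had to differ here as well, since it entered the test only through its Raji libraries, which leaves 5 lower calls among the other 7 tested cyclins. In voom on reads its difference was -1.83, beside -1.66 for CCNA2. CCNB1 remained higher in Raji-4RH, by 0.30 (SE 0.064, adjusted p = 0.00239). CCND3 at -0.16 (SE 0.088, adjusted p = 0.128) did not pass the test, although the 2 groups did not overlap, and it passed with median-centred libraries (-0.24, adjusted p = 0.0257) and without Raji-4RH chidamide replicate 2 (-0.29, adjusted p = 0.00256).

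The B-type pair was balanced in Raji and tilted to CCNB1 in Raji-4RH. The FPKM ratio of CCNB1 to CCNB2 was 1.01 and 1.06 in Raji DMSO, 0.765 and 0.803 in Raji chidamide, 3.92 and 4.16 in Raji-4RH DMSO, and 2.83 and 2.53 in Raji-4RH chidamide. The lowest Raji-4RH library was above the highest Raji library, and within each line the ratio was lower with chidamide. The mean log2 ratio differed by 1.87 between the 4 Raji-4RH and the 4 Raji libraries (two-sided exact permutation test, p = 0.0286, the smallest that 70 arrangements allow, adjusted p = 0.0571 over 4 tests). The E-type pair differed in the same direction by less. CCNE1 over CCNE2 was 0.987 to 1.1 in the Raji libraries and 1.19 to 1.61 in the Raji-4RH libraries, a log2 difference of 0.44 (exact permutation p = 0.0286, adjusted p = 0.0571). After adjustment neither of these differences was under 0.05. The other 2 of the 4 tests set chidamide against DMSO over both lines together (exact permutation p = 0.514 and 0.543), so the difference between the lines adds to their spread and they say little of the shift within a line. These pairs were chosen after their values were seen, so the permutation p-values are no evidence for a difference between the lines. The tests also treat the DMSO and chidamide libraries of a line as alike, and they reuse the values compared above. With 2 libraries against 2 the smallest exact p is 0.333, so no test was made within a line.

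**Figure D3:**
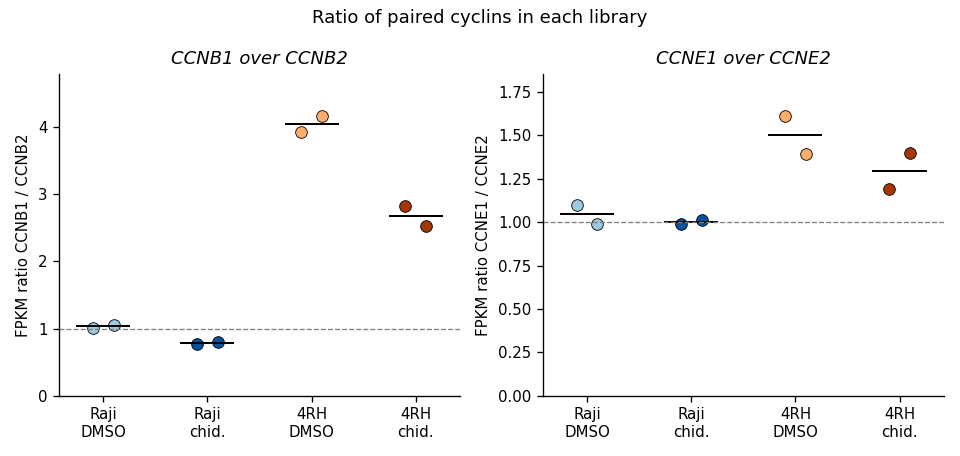
FPKM ratio of CCNB1 to CCNB2 (left) and of CCNE1 to CCNE2 (right) in the 4 groups, with 1 point per library, a line at the mean of the 2 libraries and a dashed line at 1. The CCNB1 to CCNB2 ratio lies between 2.53 and 4.16 in Raji-4RH and between 0.765 and 1.06 in Raji.

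The make-up of the summed cyclin FPKM differed by group as well. CCNA2 gave 31.9% and 32.3% of the summed cyclin FPKM of Raji with DMSO and 21.0% and 20.6% with chidamide, against 19.7% and 19.2% in Raji-4RH with DMSO and 9.86% and 10.3% with chidamide. CCNB1 was 16.8% to 17.8% of the sum in all 4 Raji libraries and 30.3% to 35.6% in all 4 Raji-4RH libraries. CCND3 lay between 20.1% and 33.0%, highest in Raji-4RH chidamide, where it and CCNB1 had the highest FPKM of the cyclins.

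The genes whose profile over the 8 libraries lay nearest to each cyclin were looked up among 6614 candidates with a mean of at least 5 FPKM, by the root mean square difference of centred log2(FPKM + 1) values. For CCNA2 these were UBE2C (0.099), the ubiquitin-conjugating enzyme of the anaphase-promoting complex, ATAD3A (0.125) and CDC6 (0.132), a licensing factor of DNA replication. For CCNB1 they were AURKA (0.1), a mitotic kinase, RPRD1B (0.108) and SLC7A1 (0.152). For CCNE2 they were KPNA2 (0.091), CCNF (0.111) and CENPU (0.119), so CCNE2 was the cyclin with another member among its nearest genes. For CCNB2 they were E2F3 (0.053), SMARCC1 (0.072) and SUPT16H (0.083), and for CCNE1 they were NASP (0.133), NCAPH2 (0.144) and PDSS1 (0.146). CCND3 lay nearest to ACSL5 (0.053), SLC35B1 (0.069) and NET1 (0.070), CCNF lay nearest to MARS (0.067), NUP155 (0.088) and TMEM109 (0.088), and the genes near CCND1 included IFT57 (0.088) and BCL11A (0.092). CCND1 had at most 1.63 FPKM, so the added 1 FPKM flattens its profile more than those of the candidates. Its difference between the DMSO groups was -1.17 on this scale and -4.47 in voom on reads. Likeness to CCND1 without the added 1 FPKM was not tested. The 8 libraries hold 4 groups of 2, so likeness over them rests on few independent points.

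The kinase partners followed their cyclins only in part. CDK1, the partner of cyclins A2, B1 and B2, had 43.8 and 44.2 FPKM in Raji-4RH with DMSO and 13 and 14.2 with chidamide, against 33.2 and 36.3 in Raji with DMSO and 25.2 and 24.7 with chidamide. It fell by 1.62 in Raji-4RH and by 0.46 in Raji (SE 0.063 for both, limma adjusted p = 1.5e-07 and 3.3e-04). CDK2, the partner of cyclins E1, E2 and A2, fell by 1.32 and 0.65 (SE 0.062, adjusted p = 3.7e-07 and 4.6e-05), also in Raji, where neither E-type cyclin passed the test. Of the partners of the D-type cyclins, CDK4 fell by 0.94 and 0.50 (SE 0.064, adjusted p = 2.7e-06 and 2.3e-04). CDK6 went apart from the others, with 17.1 and 17.2 FPKM in Raji DMSO, 13.1 and 13.5 in Raji chidamide, 4.51 and 4.20 in Raji-4RH DMSO and 5.11 and 5.07 in Raji-4RH chidamide. It fell by 0.35 in Raji (SE 0.054, limma adjusted p = 6.9e-04) and rose by 0.19 in Raji-4RH (adjusted p = 0.0121). The call in Raji-4RH was lost under quantile normalization (0.0065, limma adjusted p = 0.926), with median-centred libraries (0.11, 0.09), with only the libraries compared (0.19, 0.0563) and without Raji-4RH DMSO replicate 2 (0.15, 0.0927). Without chidamide CDK6 was lower in Raji-4RH than in Raji, with a log2 fold change of -1.76 (SE 0.054, adjusted p = 2.5e-08).

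**Figure D4:**
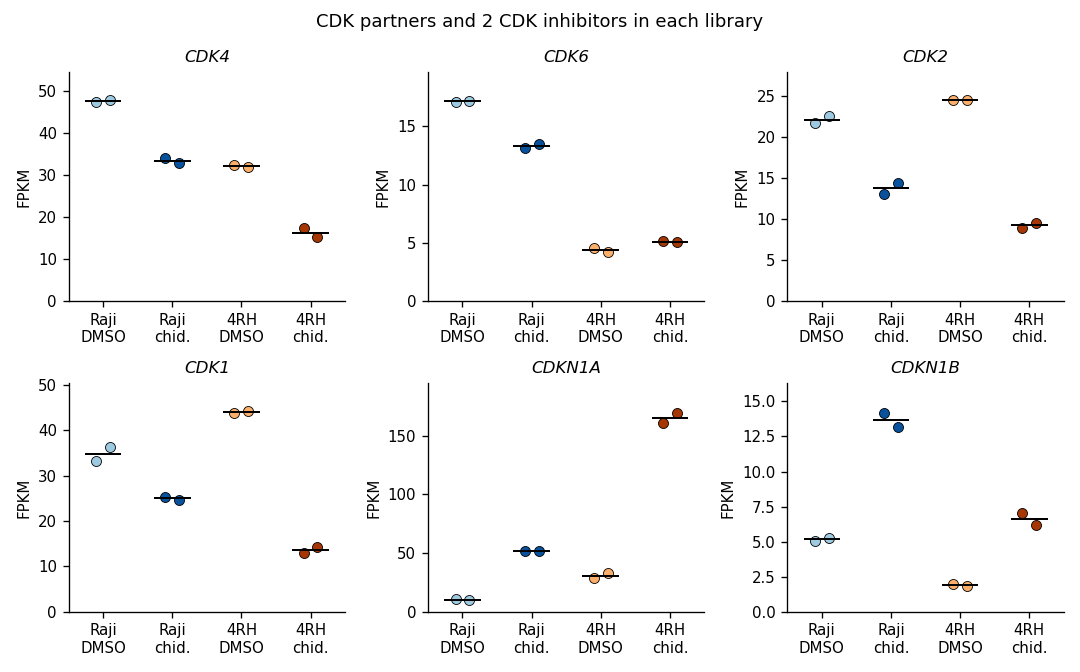
FPKM (y axes, each starting at 0) of CDK4, CDK6, CDK2, CDK1 and the CDK inhibitors CDKN1A and CDKN1B in the 4 groups, with 1 point per library and a line at the mean of the 2 libraries. CDKN1A rose from 28.8 and 32.6 to 161 and 169 in Raji-4RH, while CDK6 stayed at or below 5.11 in all Raji-4RH libraries.

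Other genes of the cyclin-CDK system were read from fixed lists, and each count stands beside the share of all tested genes. Of 7 CDK inhibitors, 6 were tested, 4 rose and 2 fell in Raji-4RH (43.3% and 31.6% of all genes), and 4 rose and 1 fell in Raji (31.5% and 28.5%). The rises in Raji-4RH include CDKN2B, with 0.565 and 0.488 FPKM with DMSO and 2.43 and 2.14 with chidamide. CDKN2B passed the filter of 1 FPKM in 2 libraries only through Raji-4RH chidamide, so it had to be higher there. CDKN1A (p21), which binds cyclin-CDK complexes, rose by 2.39 in Raji-4RH and by 2.20 in Raji (SE 0.067, limma adjusted p = 4.3e-08 and 2.1e-07), and the difference between the lines did not pass the test (0.19, adjusted p = 0.133) except under quantile normalization (0.37, adjusted p = 0.0162). CDKN1B (p27) rose by 1.41 and 1.25 (SE 0.072, adjusted p = 5.8e-07 and 3.1e-06), from 1.95 and 1.80 to 7.07 and 6.22 FPKM in Raji-4RH and from 5.08 and 5.24 to 14.2 and 13.2 in Raji. CDKN2D rose by 0.64 and 0.65 (adjusted p = 7.3e-04 and 0.00105). CDKN2C, an inhibitor of CDK4 and CDK6, fell by 0.21 and 0.47 (adjusted p = 0.0188 and 3.6e-04), and CDKN2A fell by 0.57 in Raji-4RH (adjusted p = 1.3e-04) and had 0.16 in Raji (adjusted p = 0.0832). The CDKN2C call in Raji-4RH was lost under quantile normalization (-0.10, limma adjusted p = 0.171) and without Raji-4RH DMSO replicate 1 (-0.23, 0.0526), Raji-4RH DMSO replicate 2 (-0.18, 0.104) or Raji-4RH chidamide replicate 1 (-0.17, 0.0558), while CDKN2A in Raji was called higher under quantile normalization (0.24, 0.0254) and without Raji DMSO replicate 1 (0.27, 0.0138).

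A list of 14 genes around cyclin-CDK activity holds mostly kinases, phosphatases and cofactors, and GMNN is none of these. Of the 14, 12 fell and 1 rose in Raji-4RH (31.6% and 43.3% of all tested genes), and 7 fell and 1 rose in Raji (28.5% and 31.5%). CDC25A, the phosphatase that activates CDK2, fell by 2.66 and 1.18 (SE 0.057, limma adjusted p = 2.2e-08 and 1.3e-06). PKMYT1, a kinase that inhibits CDK1, fell by 2.52 and 1.00 (SE 0.096, adjusted p = 1.4e-07 and 4.9e-05), so genes that activate and genes that inhibit the kinases both fell. WEE1, the other kinase that inhibits CDK1, fell by 1.91 in Raji-4RH (SE 0.061, adjusted p = 7.2e-08) and had -0.15 in Raji (adjusted p = 0.0715), which passed in 5 of 17 alternatives. CKS1B fell by 1.48 and 0.75 (adjusted p = 1.3e-06 and 1.5e-04), and MNAT1, of the CDK-activating kinase, rose by 0.36 and 0.41 (adjusted p = 0.00358 and 0.00246), the call in Raji-4RH being lost under quantile normalization (0.19, adjusted p = 0.124).

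A list of 24 genes holds mostly parts and regulators of ubiquitin ligases that act on cyclins or CDK inhibitors, and also USP37, a deubiquitinase. Of the 24, 17 fell and 1 rose in Raji-4RH (31.6% and 43.3% of all tested genes), and 13 fell and 3 rose in Raji (28.5% and 31.5%). UBE2C fell by 2.24 and 1.00 (SE 0.054, limma adjusted p = 2.8e-08 and 2.5e-06). SKP2, the F-box protein that marks CDKN1B for destruction, fell by 1.59 and 0.93 (SE 0.064, adjusted p = 1.9e-07 and 8.2e-06), and FBXO5, an inhibitor of the anaphase-promoting complex, fell by 1.44 and 0.60 (SE 0.058, adjusted p = 1.9e-07 and 4.9e-05). ANAPC11 rose by 0.38 and 0.29 (adjusted p = 9.9e-04 and 0.00668), FBXW7, which recognises cyclin E1, rose by 0.23 in Raji (adjusted p = 0.00672) and had -0.11 in Raji-4RH (adjusted p = 0.0976), and UBE2S had 0.19 in Raji (adjusted p = 0.0271) and -0.18 in Raji-4RH (adjusted p = 0.0291). Of 17 alternatives each, the UBE2S call was lost in 6 in Raji and lost or turned in 7 in Raji-4RH, among them the fits without either DMSO library of Raji-4RH and without either chidamide library of Raji in both lines, without Raji DMSO replicate 2 in Raji and without Raji-4RH chidamide replicate 2 in Raji-4RH. The FBXW7 call in Raji was lost under quantile normalization (0.15, limma adjusted p = 0.0599) and without Raji chidamide replicate 1 (0.20, 0.0572), and in Raji-4RH FBXW7 was called lower under quantile normalization (-0.52, 9.4e-05) and with median-centred libraries (-0.19, 0.0159). The ANAPC11 call in Raji was lost without Raji DMSO replicate 2 (0.22, 0.0518).

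Of 22 pocket proteins and factors that read cyclin-CDK activity or drive cyclin genes, 19 were tested, 13 fell and 3 rose in Raji-4RH (31.6% and 43.3% of all tested genes), and 13 fell and 1 rose in Raji (28.5% and 31.5%). MYBL2, which acts at CHR promoters, fell by 2.28 and 1.08 (SE 0.072, limma adjusted p = 6.6e-08 and 6.6e-06). E2F2, an activator of S phase genes, fell by 2.70 and 0.98 (SE 0.099, adjusted p = 1.3e-07 and 6.7e-05), and E2F8 fell by 2.13 in Raji-4RH and fell by 1.05 in Raji (SE 0.072, adjusted p = 9.4e-08 and 8.1e-06). RB1, the target of the D-type cyclins and their kinases, rose by 1.07 and 0.67 (SE 0.066, adjusted p = 1.6e-06 and 6.0e-05). RBL2 and NFYA, a subunit of NF-Y, rose by 0.47 and 0.45 in Raji-4RH (adjusted p = 8.1e-04 and 5.9e-05) and had 0.16 and -0.06 in Raji (adjusted p = 0.117 and 0.34).

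Of 22 symbols of other cyclins, 12 genes were tested, 6 rose and 2 fell in Raji-4RH (43.3% and 31.6% of all tested genes), and 3 rose and 2 fell in Raji (31.5% and 28.5%). Their median log2 fold changes of 0.16 and 0.03 stand beside 0.093 and 0.017 for all genes, so the shares that rose and the medians lay near those of genes at large. CCNG2, which is linked to cell cycle exit, rose by 0.81 and 0.52 (SE 0.066, limma adjusted p = 7.8e-06 and 2.1e-04), and CCNG1 rose by 0.57 in Raji-4RH (adjusted p = 7.6e-05) and had -0.05 in Raji (adjusted p = 0.587). CCNYL1 rose by 0.75 and 0.33 (adjusted p = 1.7e-04 and 0.0215), CCNI by 0.34 and 0.55 (adjusted p = 4.3e-04 and 5.3e-05), while CCNJ fell by 0.84 and 0.33 (adjusted p = 3.2e-06 and 0.00146) and CCNT2 by 0.34 and 0.19 (adjusted p = 7.6e-04 and 0.0236). In Raji the calls of CCNYL1 and CCNT2 were lost without Raji DMSO replicate 2 (0.24 and -0.15, limma adjusted p = 0.141 and 0.116) and without Raji chidamide replicate 1 (0.23 and -0.14, 0.152 and 0.165), that of CCNYL1 also without a filter (0.33, 0.0529) and that of CCNT2 also with only the libraries compared (-0.19, 0.0507). Of 12 F-box proteins of the ligase family of CCNF, 3 fell and 4 rose in Raji-4RH (31.6% and 43.3% of all tested genes), and 4 fell and 5 rose in Raji (28.5% and 31.5%), counts near those shares. Besides SKP2 and FBXO5, FBXO4 fell by 0.55 in Raji-4RH (adjusted p = 4.8e-04). FBXO10 rose by 0.46 and 0.45 and FBXO11 by 0.34 and 0.32 (adjusted p from 7.7e-04 to 0.00255), FBXW11 by 0.67 in Raji (adjusted p = 3.1e-05) and by 0.29 in Raji-4RH (adjusted p = 0.00186), and FBXL20 by 0.72 in Raji-4RH (adjusted p = 9.9e-06). Under quantile normalization the calls of FBXO10 and FBXO11 in Raji-4RH were lost (0.15 and 0.03, limma adjusted p = 0.169 and 0.724).

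**Figure D5:**
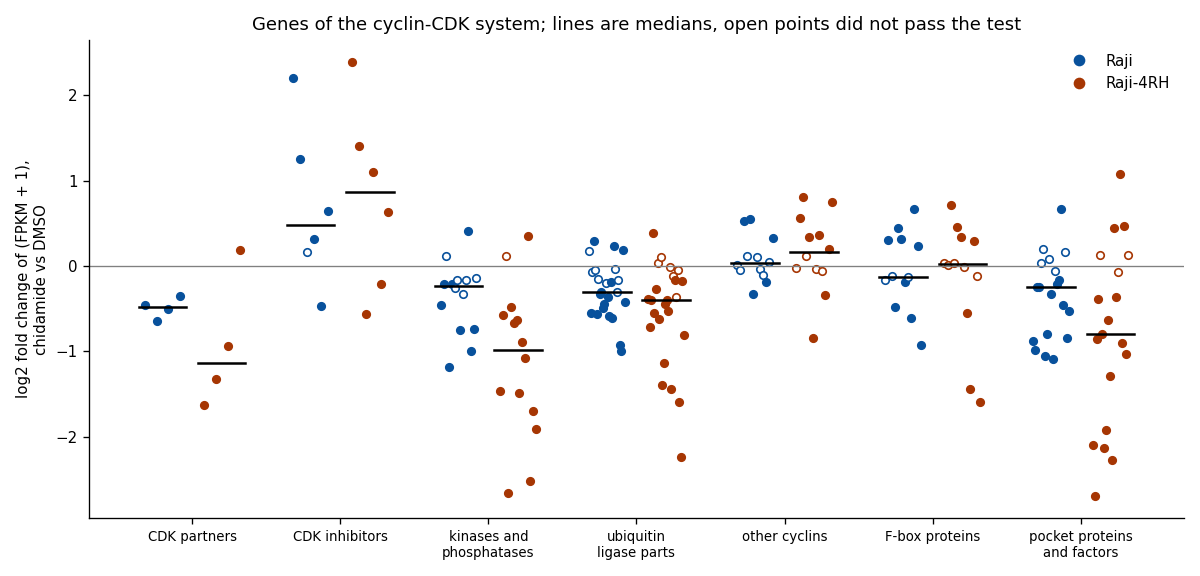
Log2 fold change of FPKM + 1 with chidamide against DMSO (y axis) for the tested genes of 7 lists around the cyclins, with Raji in blue and Raji-4RH in brown; lines are medians and open points did not pass the test. The medians of the CDK partners lie at -0.48 in Raji and -1.13 in Raji-4RH, and those of the CDK inhibitors at 0.48 and 0.87. The medians of the CDK inhibitors include CDKN2B, which passed the filter only through Raji-4RH chidamide.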

How the data were processed

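RNA-seq of Raji and Raji-4RH cells, harvested by flow sorting, was made with the NEBNext Ultra RNA kit on an Illumina HiSeq X instrument. The submitters' processing notes name HISAT2 2.0.5, SAMtools 1.7, HTSeq 0.9.1 and DESeq2 1.22.2 and the build GRCh38. The annotation and the strand setting are not given in the sources used here. The authors deposited 1 table of FPKM values with gene lengths. Length and library total turned 100% of the values above 0 into whole reads within 0.05. The totals match sums over 63305 rows, the final 662 rows being a repeat of the opening ones, and after row 6234 values lie up to 14 rows below their labels. Each gene received its own values by a rule of row shifts, rescaled to its own length, which placed 90.7% to 93.2% of the reads. CCND1, CCND2, CCND3 and CCNE1 needed no shift, CCNA2 and CCNB1 shifted by 1 row, CCNB2 and CCNF by 3, and CCNE2 by 5. Coordinates and exon overlaps are those of GENCODE v29.

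Limma 3.58.1 (trend) was fitted on log2(FPKM + 1) for genes that reached 1 FPKM in 2 libraries or more. The fit was also run on simulated reads with the same spread setting in all groups. Replicate noise in the data was unequal between groups, so that run does not test the p-values given here. Because the deposited values are FPKM, the main test was made on log2(FPKM + 1) and not on counts, and limma voom on the recovered reads was an alternative. Other alternatives were a pseudocount of 0.1, other filters, quantile normalization, median-centred libraries, no trend, a replicate block, only the libraries compared, a fold threshold, the rows as deposited and leaving out each library. The labels do not say whether replicates were separate cultures, so p-values measure only the spread between these libraries. That spread is 1 estimate per gene shared by the 4 groups. Replicates differed most in Raji-4RH chidamide (chi-square per gene 13.5) and least in Raji chidamide (1.77). The SE may therefore be too small in comparisons that use Raji-4RH chidamide. Genes outside the 9 cyclins were named as the CDK partners, as up to 3 rises and 3 falls per list and line (called, mean level 1 FPKM or more), or as the 3 nearest profiles. Some genes that the rule names are not reported here. The members and lists were chosen with earlier results of these data known. R 4.3.3, Python 3.11.15, pandas 2.3.3, numpy 2.4.6, scipy 1.17.1 and matplotlib 3.10.9 were used.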

Additional observations from a re-analysis of the deposited data

Results flagged for a closer look

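The change with chidamide differed between Raji-4RH and Raji, by limma's test of the interaction, for all 8 tested cyclins and for their 4 kinase partners. As the change in Raji-4RH minus that in Raji, on the log2 scale, the difference was 0.45 for CCND1, -0.63 for CCND3, -1.43 for CCNE1, -1.22 for CCNE2, -1.07 for CCNA2, -0.84 for CCNB1, -0.61 for CCNB2 and -1.01 for CCNF. For the kinases it was -1.16 for CDK1, -0.67 for CDK2, -0.44 for CDK4 and 0.53 for CDK6, with limma adjusted p of 3.3e-05, 4.5e-04, 0.00431 and 7.3e-04. CDK6 fell in Raji, and its value of 0.19 in Raji-4RH was called in 13 of 17 alternatives and was 0.0065 under quantile normalization. No group had the 4 samples needed to look for a single outlying library.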

How the results depend on the processing

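Over all alternatives, the tested cyclins gave 667 values, of which 628 kept direction and side of the threshold, 22 lost the call, 9 gained it and 8 changed sign. A threshold of an absolute log2 fold change of 1 left 1620 genes in Raji-4RH and 560 in Raji, 676 in the interaction, 1703 between the DMSO groups and 2228 between the chidamide groups. Of the cyclins it left 6 in Raji-4RH, 1 in Raji, 4 in the interaction, 2 between the DMSO groups and 2 between the chidamide groups. With values read in the row of the label, the cyclins called were 5 in Raji-4RH, 3 in Raji, 3 in the interaction, 5 between the DMSO groups and 4 between the chidamide groups, because CCNA2, CCNB1, CCNB2, CCNF and CCNE2 then carry other genes' values. The replicate numbers are names only and just 2 of them exist, and with the replicate block 8 cyclins were called in Raji-4RH, 4 in Raji, 8 in the interaction, 8 between the DMSO groups and 7 between the chidamide groups, as without it. Replicate differences of the 2 DMSO groups correlated at -0.155 across genes, and a crossed pairing, added after seeing the data, called 8542 genes between them, against 7992 with the numbers as given.

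Under quantile normalization signs turned for CCND1 in Raji-4RH (-0.10), for CCNE2 (-0.10) and CCNG1 (0.06) in Raji, for UBE2S (0.06) in Raji-4RH, for CCNI (0.04) and RB1 (0.03) between the chidamide groups, and for FBXO10 (-0.12) and FBXO11 (-0.28) in the interaction. With median-centred libraries they turned for CCNE2 in Raji (-0.0049), CCNI (-0.03) and CKS1B (-0.04) between the DMSO groups, and FBXO10 (-0.02) and FBXO11 (-0.01) in the interaction. For CDKN2D in the interaction a pseudocount of 0.1 gave 0.02 and voom 0.00022. Leaving out 1 library, where the lone library left in a group is assumed to vary like the other groups, changed signs within these ranges: in Raji, CCND1 -0.26 to 0.04, CCNE1 -0.04 to 0.02, CCNE2 -0.05 to 0.12 and CCNG1 -0.13 to 0.04, between the DMSO groups, CCNI -0.01 to 0.04, CKS1B -0.02 to 0.02, MYBL2 -0.05 to 0.02 and PKMYT1 -0.19 to 0.09, between the chidamide groups, RB1 -0.10 to 0.07, and in the interaction, CDKN2D -0.16 to 0.14, FBXO10 -0.07 to 0.10, FBXO11 -0.04 to 0.08 and MNAT1 -0.17 to 0.06. Otherwise the cause was not tested. Depth limits CCND2 and, in Raji-4RH, CCND1.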
